A study of Mus musculus with 12 samples.

Results

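The genes described here are 10 microglia marker and scavenger genes, Csf1r, Aif1, P2ry12, Tmem119, Trem2, Tyrobp, Cd68, Lcp1, Ptprc and Marco, chosen by symbol out of the 56860 named entries of a gene count table. All 10 symbols were in the table. Microglia are the resident macrophages of the brain, they depend on signalling through the receptor Csf1r, and they survey and engulf material with a set of surface receptors. They do not belong to the neural lineage that gives rise to oligodendrocytes (OLs), so transcripts of such genes in an OL culture are usually read as a measure of other cells in the dish.

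The cultures were primary OLs from C57BL/6J mice, made from O4-positive cells that were isolated with magnetic beads from newborn cortex, expanded and then differentiated. The labels give the tissue as medial prefrontal cortex, while the methods of the study name the cortex. A group of 6 libraries came from cells given siEgr2, an interfering RNA against the transcription factor Egr2, and 6 came from cells given the scrambled control siNC, all collected after 48 h. In the methods the reagent is an siRNA in one place and a plasmid in another, and whether the 6 libraries of a group came from separate cultures is not stated, so p-values measure the spread between these libraries, which may be technical.

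Total counts ranged from 28682946 to 39383014 in the siNC libraries and from 8034251 to 16683677 in the siEgr2 libraries, with no overlap. Rn18s-rs5, a copy of 18S ribosomal RNA, took a share of all counts that also separated the groups, at 0.142% to 1.05% in siNC and 10.5% to 16.5% in siEgr2. Depth, this share and the treatment therefore cannot be told apart in any comparison below. Levels are given in CPM (counts scaled to a common total) on the TMM scale, on which 3 counts, the limit that a count of 0 allows, were worth 0.0718 to 0.0982 CPM in a siNC library and 0.185 to 0.384 CPM in a siEgr2 library. These limits cover counting error only and take each count as independent, which was not tested: of the counts from 4 to 9 in a library, 63.5% to 67.3% were even.

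The targeted gene Egr2 was at 3.89, 5.19 and 7.06 CPM in siNC (lowest, median and highest of 6 libraries) and at 2.22, 3.93 and 4.86 CPM in siEgr2. The groups overlapped, and the log2 fold change of Egr2 was -0.51 (SE 0.21, edgeR's quasi-likelihood test, Benjamini-Hochberg adjusted p = 0.0981). With scaling by library size only, it was called lower, at -0.70 (edgeR adjusted p = 0.0144).

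Cd68, Tmem119, P2ry12 and Lcp1 were above 3 counts in all 12 libraries, and each of the other microglia genes was at or under 3 counts in at least 1 library. Together they held 248 to 435 counts in a siNC library and 56 to 132 counts in a siEgr2 library, or 7.64 to 12.5 and 4.96 to 8.46 CPM of the plain totals. Their summed level was 9.79 ± 1.68 CPM in siNC and 7.51 ± 1.34 CPM in siEgr2 (SD, n = 6), with overlapping ranges. In bulk RNA such as this, fewer cells of a type and less RNA per cell cannot be told apart. Between 8 and 9 of the 10 genes had a count in a siNC library and between 6 and 7 in a siEgr2 library. When every library was thinned to the smallest total, these numbers were 7 to 9 and 5 to 7.

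**Figure D1:**
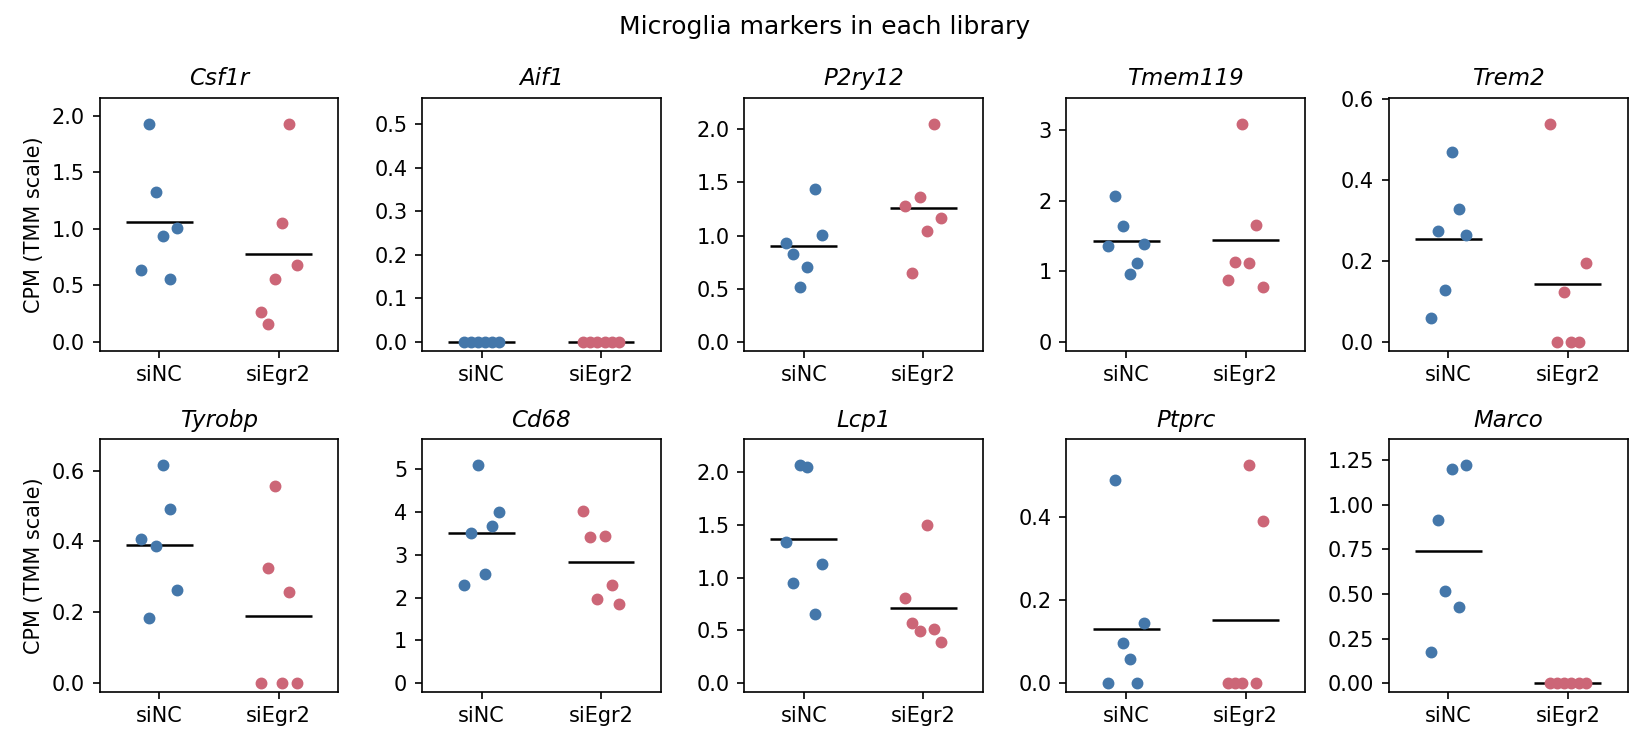
Level of the 10 microglia genes in each of the 12 libraries, in CPM on the TMM scale, with an axis of its own for each gene; points are libraries and horizontal lines are group means. Cd68 was the highest, Aif1 was at 0 in all 12 libraries, and Marco was at 0 in the 6 siEgr2 libraries.

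Compared per kb of exon, Cd68 had the highest siNC level, at 2.80 CPM per kb, followed by Tmem119 (0.616), Tyrobp (0.586), Marco (0.386), P2ry12 (0.355), Csf1r (0.184), Lcp1 (0.143), Trem2 (0.0512) and Ptprc (0.00717 CPM per kb). The step from Cd68 to Tmem119 was larger than the SD between libraries of either gene. Tmem119 and Tyrobp differed by less than their SDs of 0.171 and 0.232 CPM per kb, and so did Marco and P2ry12, with SDs of 0.226 and 0.124. With the longest transcript in place of all exons, Lcp1 moved to 0.355 and Ptprc to 0.0229 CPM per kb, since long alternative exons are annotated for both.

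OL and astrocyte markers were far higher on the same scale. The summed level of 10 myelinating OL genes was 1482 ± 81.5 CPM per kb in siNC and that of 8 astrocyte genes 1708 ± 61.8 CPM per kb, while the 10 microglia genes reached 5.13 ± 0.850 CPM per kb (SD, n = 6 each). The 6 endothelial genes were at 3.84 ± 0.340 CPM per kb, and the lymphocyte list (0.139) and the monocyte and neutrophil list (0.0406) were lower than the microglia genes. Several defining microglia genes had no count in any of the 12 libraries, namely Aif1 among the 10 genes and Siglech, Gpr34, Fcrls and Itgam outside them. The fractalkine receptor gene Cx3cr1 had 0 counts in siNC and 4 in all 6 siEgr2 libraries together, and the myeloid master regulator gene Spi1 had 11 and 5. The name microglia markers is therefore kept here for the list, and the genes that carried most of its counts, Cd68, Tmem119, Lcp1, Csf1r and P2ry12, are described by name.

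**Figure D2:**
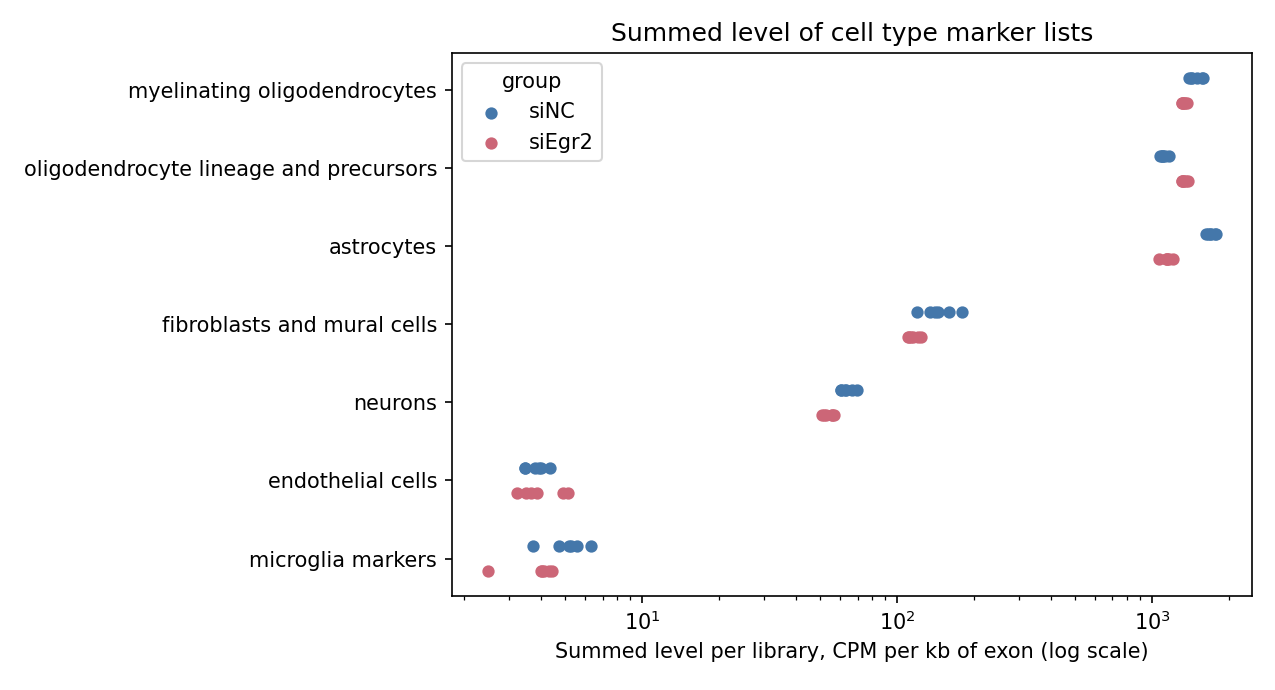
Summed level of marker lists of several cell types in each library, in CPM per kb of exon on a log axis, for 6 siNC and 6 siEgr2 libraries. The OL and astrocyte lists had siNC means of 1112 to 1708 CPM per kb, and the microglia genes had means of 5.13 in siNC and 3.91 in siEgr2.

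The comparison of siEgr2 with siNC asks whether these genes differed after treatment aimed at Egr2, whose own level was not called different. Over all 16600 genes that passed a filter on low counts, 844 (5.08%) were called lower and 437 (2.63%) higher, with both an adjusted p below 0.05 and a log2 fold change beyond 0.5 in size asked for. Of the 10 microglia genes, 5 passed that filter and 0 of these were called by edgeR in either direction, with 1 at an unadjusted p under 0.05, a threshold that 5307 of all tested genes (32%) passed. DESeq2 and limma-voom also called 0 of the 5. The median log2 fold change of the 5 was -0.30, and 3 of them were below 0, beside a median of 0.00 and 49.1% below 0 over all tested genes. With scaling by library size only, which moved the median of all genes to -0.18 and the lower share of the calls from 65.9% to 88.0%, 1 of the 5 was called lower.

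The other members had too few counts for the filter. In a fit of all 30142 genes with any count, 1046 (3.47%) were called lower and 655 (2.17%) higher, and Marco was the single microglia gene called. Trem2, Tyrobp and Ptprc were not called there, and Aif1 has no value. When any 1 siEgr2 library was left out, Marco passed the filter and was called lower, and when any 1 siNC library was left out it did not pass. With 0 counts in siEgr2, Marco could pass only through siNC, where it is high, so these calls add no support.

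Csf1r encodes the receptor for the cytokines Csf1 and Il34 and lies on chromosome 18 (GRCm38 chr18:61100598-61132149, plus strand). Its level was 0.556, 0.971 and 1.92 CPM in siNC and 0.163, 0.619 and 1.92 CPM in siEgr2 (lowest, median and highest). The groups overlapped, with the highest siEgr2 value in replicate 5. Of the 6 siEgr2 values, 3 were below the lowest siNC value, from 4, 2 and 9 counts. The value from 9 counts, in replicate 3, was level with the lowest siNC value at 0.556 CPM. The log2 fold change of Csf1r was -0.54 (SE 0.49, edgeR adjusted p = 0.493), and it was -0.97 without siEgr2 replicate 5 and -0.29 without siNC replicate 2, not called in either. Of its exon bases, 15.1% overlap Hmgxb3 on the opposite strand, and since the use of strand in counting is not given, reads of the pair cannot be told apart.

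P2ry12, the ADP receptor by which resting microglia sense injury, lies on the opposite strand within the body of Med12l (chr3:59216272-59262871, minus strand), with 9 exon bases shared. It was at 0.516, 0.877 and 1.44 CPM in siNC and 0.651, 1.22 and 2.05 CPM in siEgr2. The siEgr2 median was the higher one, and the ranges overlapped (log2 fold change 0.46, SE 0.33, edgeR adjusted p = 0.374). With scaling by library size only, the log2 fold change of P2ry12 was 0.28, and it was 0.29 without siEgr2 replicate 5, not called in either. Tmem119, a membrane protein used to tell microglia from other macrophages (chr5:113793729-113800516, minus strand), was at 0.966, 1.38 and 2.08 CPM in siNC and 0.780, 1.13 and 3.09 CPM in siEgr2. Replicate 3 of siEgr2 alone held 50 of the 113 Tmem119 counts of its group. The log2 fold change of Tmem119 was 0.03 (SE 0.34, edgeR adjusted p = 0.961), and its sign changed with the scaling and the test, so no direction is given.

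Trem2 binds lipids and cell debris, and Tyrobp, also named Dap12, is the adaptor through which it signals. Trem2 (chr17:48346401-48354147, plus strand) held 2 to 16 counts in a siNC library and 0 to 8 in a siEgr2 library, with 0 in 3 of the 6. Tyrobp (chr7:30413760-30417585, plus strand) held 6 to 21 counts in siNC and 0 to 9 in siEgr2, also with 0 in 3 of the 6. In counts pooled over the group and not scaled for depth, Trem2 had 52 in siNC and 12 in siEgr2, and Tyrobp had 79 and 15. After thinning to equal totals, Trem2 had 11 and 6 counts, and Tyrobp 21 and 8. Both genes overlapped between the groups. Their log2 fold changes were -0.77 for Trem2 (SE 0.92, edgeR adjusted p = 0.618) and -1.04 for Tyrobp (SE 0.82, edgeR adjusted p = 0.433). The log2 fold change of Trem2 was -1.91 without siEgr2 replicate 1, and the log2 fold change of Tyrobp was -1.83 without siEgr2 replicate 3, neither of them called.

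Lcp1 (L-plastin) and Aif1 (Iba1) bundle actin in leukocytes, and Ptprc (CD45) is a phosphatase on the surface of nearly all leukocytes. Lcp1 (chr14:75131101-75230842, plus strand) was at 0.654, 1.23 and 2.06 CPM in siNC and 0.390, 0.541 and 1.50 CPM in siEgr2. All siEgr2 libraries but replicate 4 were below the siNC median. Its log2 fold change of -0.91 (SE 0.39) did not pass the adjustment (edgeR adjusted p = 0.121), and it was the gene with an unadjusted p under 0.05. Lcp1 was called lower with scaling by library size only (-1.09, edgeR adjusted p = 0.0368) and without siEgr2 replicate 4 (-1.27, edgeR adjusted p = 0.0347).

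Ptprc (chr1:138062861-138175708, minus strand) had 27 counts in all siNC libraries together and 11 in all siEgr2 libraries, with 0 counts in 2 and 4 of the 6 libraries. In siNC, 16 of the 27 counts came from replicate 2. Its fitted log2 fold change of 0.15 (SE 1.24, edgeR adjusted p = 0.951) changed sign with the scaling, and 8 of its 12 values were at or under 3 counts. Aif1 (chr17:35170991-35176068, minus strand) had 0 counts in all 12 libraries, which allows up to the 3-count limits given above.

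Cd68, a glycoprotein of lysosomes in macrophages, was the most abundant of the genes (chr11:69664213-69666153, minus strand). Its level was 2.30, 3.59 and 5.09 CPM in siNC and 1.85, 2.86 and 4.03 CPM in siEgr2. The ranges overlapped in most libraries. The log2 fold change of Cd68 was -0.30 (SE 0.24, edgeR adjusted p = 0.439), and it was -0.16 without siNC replicate 3 and -0.48 with scaling by library size only, not called in either.

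Marco, a scavenger receptor of macrophages that binds bacteria and particles, was the gene with the clearest difference (chr1:120474538-120505024, minus strand). The siNC libraries held 6, 30, 16, 41, 13 and 51 Marco counts in the order of their replicate numbers, or 0.174 to 1.22 CPM with a median of 0.716. All 6 siEgr2 libraries held 0. Against the mean 3-count limit of the siEgr2 libraries, taken per library, the mean siNC level was at least 2.91-fold higher than that of siEgr2, if each count is independent, and a larger limit would lower this bound. The difference was called in the fit of all genes with any count (edgeR adjusted p = 0.000317, lower in 6 of 6 libraries). On the same counts, DESeq2 gave an adjusted p of 2.36e-06 and limma-voom one of 8.19e-05. Marco entered these fits only through siNC, where it is high, so the calls of the other tools add no separate support.

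The Marco result rests on few counts. Siglech, Itgam and Aif1 were at 0 in both groups, so no loss of theirs could be seen beside that of Marco. The lowest siNC value, 0.174 CPM in replicate 1, lay below the 3-count limit of every siEgr2 library. After thinning to equal totals, the siNC libraries kept 2 to 11 Marco counts each, 32 in all, and the siEgr2 libraries 0. Over the 30142 genes with any count, 1221 (4.05%) had every siNC library above every siEgr2 library, and of the 10 microglia genes only Marco did. Counts of at least 6 in each siNC library with 0 in each siEgr2 library were found for 12 genes, Marco included. What part the lower depth of the siEgr2 libraries had in this was not tested beyond the thinning.

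The ligands of Csf1r were present at much higher levels than the receptor. Csf1 was at 20.2 CPM per kb in siNC, and Csf1r at 0.184. Of the 2 ligands, Il34 fell, by 0.91 on the log2 scale (SE 0.15, edgeR adjusted p = 0.000489) with no overlap, and Csf1 passed the adjusted p (0.00101 by edgeR) with a log2 fold change of -0.32, short of the fold threshold.

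Among the 12 partners and signalling genes of Dap12, 3 were tested and 1, the Src family kinase gene Lyn, was called lower (log2 fold change -0.56, SE 0.11, edgeR adjusted p = 0.00146). Over all tested genes, 5.08% were called lower by edgeR and 32% had an unadjusted p under 0.05. The phospholipase gene Plcg2 was the most abundant of them, at 88.8 CPM in siNC and 76.6 CPM in siEgr2. It passed the adjusted p (0.0134 by edgeR) with a log2 fold change of -0.22, short of the fold threshold. Siglech was at 0. Of 11 further homeostatic microglia genes, 3 were tested and 0 called by edgeR, DESeq2 or limma-voom, with 1 at an unadjusted p under 0.05. Sall1 was the most abundant of these, at 70.3 and 59.9 CPM, below the fold threshold (log2 fold change -0.23, edgeR adjusted p = 0.0212). In the fit without a filter, the nucleotide receptor gene P2ry6 was called lower. It had 72 counts in siNC and 0 in siEgr2 (edgeR adjusted p = 0.00433), a call that was lost with the replicate block (edgeR adjusted p = 0.0653).

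Of 7 myeloid transcription factor genes, 5 were tested and 2 were called lower, beside 5.08% of all tested genes. These were Runx1 (log2 fold change -0.86, SE 0.21, edgeR adjusted p = 0.00827) and Cebpa, the most abundant, which went from 9.73 ± 1.55 to 6.19 ± 1.57 CPM (SD, n = 6; log2 fold change -0.66). Ikzf1 and Spi1 had too few counts to be tested. The leukocyte cytoskeleton and oxidase list had 14 genes, of which 7 were tested and 1 was called by edgeR, 1 by limma-voom and 2 by DESeq2. Cybb, the catalytic subunit of the phagocyte oxidase, fell by 1.48 on the log2 scale (SE 0.39, edgeR adjusted p = 0.012), from 3.17 ± 0.900 to 1.09 ± 0.844 CPM. Fermt3, an activator of leukocyte integrins named here after its values were seen, was called higher by DESeq2 (log2 fold change 0.70, adjusted p = 0.0499) and not by edgeR (adjusted p = 0.0834). Coro1a was the most abundant gene of that list, at 10.7 and 13.8 CPM. It passed the adjusted p (0.0376 by edgeR) with a log2 fold change of 0.37, short of the fold threshold.

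The leukocyte integrin and Fc receptor list had 3 of 13 genes tested and 0 called by edgeR, DESeq2 or limma-voom, with 0 at an unadjusted p under 0.05. Cd53 was its most abundant gene, at 1.41 and 1.84 CPM. Of the 5 complement genes, 2 were tested and 0 were called by any of the 3 tools, with 0 at an unadjusted p under 0.05, and the most abundant, C3ar1, was at 1.01 and 0.582 CPM. The border macrophage list had 1 of 9 genes tested, the folate receptor gene Folr2 at 8.47 and 9.05 CPM, which was not called (unadjusted p over 0.05, and not called by DESeq2 or limma-voom). Ms4a7 of that list, with 52 counts in siNC and 0 in siEgr2, was called lower without a filter (edgeR adjusted p = 0.0343). That call was lost with thinning, with the replicate block and without any of 8 of the 12 libraries in turn.

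Scavenger receptors were tested for 7 of 13 genes, of which 2 were called lower, beside 5.08% of all tested genes. Scara3 went from 12.04 ± 1.31 to 5.15 ± 1.04 CPM with no overlap (SD, n = 6; log2 fold change -1.22, SE 0.14, edgeR adjusted p = 9.24e-06), and Cxcl16, a membrane-bound chemokine that also binds oxidized lipids, had a log2 fold change of -0.86 (SE 0.22, edgeR adjusted p = 0.0109). Scarb2 was the most abundant, at 367 and 327 CPM, below the fold threshold. The macrophage scavenger receptor genes Msr1, Mrc1, Stab1 and Cd163 were too low for the filter.

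Relatives of the members by sequence family were 8 genes, of which 7 were tested, 1 was called lower and 1 higher. Over all tested genes, 5.08% were called lower and 2.63% higher. Pdgfrb, a kinase of the same family as Csf1r, fell by 0.56 (SE 0.10, edgeR adjusted p = 0.000562), a call lost without siNC replicate 2 (log2 fold change -0.49). Kit, another kinase of that family, rose by 0.53 (SE 0.08, edgeR adjusted p = 0.000102), and its call was lost in the fit without a filter (0.49), with scaling by library size only (0.34) and without siEgr2 replicate 4 (0.49). The most abundant was Lamp1, a lysosomal relative of Cd68, at 566 and 474 CPM, below the fold threshold.

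Activated microglia genes were the myeloid list with the most calls, 5 of 7 tested genes, all lower, of 11 in the list. Over all tested genes, 5.08% were called lower. Spp1 (log2 fold change -0.81), Lpl (-0.74), Gpnmb (-0.62) and Axl (-0.60) were the 4 with the largest change, and Apoe was the most abundant, at 815 ± 88.4 CPM in siNC and 540 ± 50.2 CPM in siEgr2 (SD, n = 6; log2 fold change -0.59, edgeR adjusted p = 0.000113). The call of Gpnmb was lost with the replicate block (edgeR adjusted p = 0.0689). Apoe is known to be made by astrocytes as well, and Spp1, Lpl and Axl are not limited to microglia. Cst7, a protease inhibitor gene of this list, was at 0 in all 12 libraries. Clec7a (53 counts in siNC and 17 in siEgr2), Itgax (2 and 10) and Ccl6 (7 and 15) were too low for the filter.

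Astrocyte markers moved in the same comparison, in which 5.08% of all tested genes were called lower. Of 8 astrocyte genes, 5 were called lower (6 by DESeq2 and 6 by limma-voom), Slc1a3 (log2 fold change -0.85), Aqp4 (-0.80), Aldh1l1 (-0.74) and Slc1a2 (-0.61) with the largest change. Gfap was the most abundant, at 4777 ± 205 CPM in siNC and 3242 ± 152 CPM in siEgr2 (SD, n = 6; log2 fold change -0.56, edgeR adjusted p = 2.25e-08). For Gfap the paper reports the opposite direction by qPCR, with a significant increase in primary OLs of its siEgr2 group. The reason for the difference was not tested. The summed astrocyte level was 8123 to 8826 CPM in siNC and 5171 to 5873 CPM in siEgr2, and no astrocyte gene of the list was at 0. The part of astrocyte RNA in the lower levels of Apoe, Il34, Scara3 and the other called genes was not tested.

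Other cell types had calls in both directions. Over all tested genes, edgeR called 5.08% lower and 2.63% higher, and 32% had an unadjusted p under 0.05. None of the 10 myelinating OL genes was called by edgeR, DESeq2 or limma-voom, with 7 at an unadjusted p under 0.05. Of 6 lineage and precursor genes, Pdgfra (log2 fold change 0.56, SE 0.04) and Cspg4 (0.56, SE 0.05) were called higher, both short of the fold threshold with scaling by library size only, and Olig1 was the most abundant. For Pdgfra the paper reports the same direction by qPCR, a significant increase in primary OLs given siEgr2. Of 7 fibroblast and mural genes, 3 were called lower, Rgs5 (log2 fold change -0.78), Acta2 (-0.57) and Pdgfrb, and Col1a1 was the most abundant. Neurons had 5 of 6 genes tested and endothelial cells 3 of 6, with 0 called in each by the 3 tools, and 2 and 0 at an unadjusted p under 0.05. Tubb3 and Kdr were the most abundant genes of those lists. None of the 8 monocyte and neutrophil genes or the 8 lymphocyte genes had enough counts to be tested, with S100a9 and Cd79a as the most abundant by the mean over all 12 libraries. S100a9 had 0 counts in siNC, with all 38 in siEgr2 replicate 2, and Cd79a had 18 counts in siNC and 2 in siEgr2.

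The promoters of 7 of the 10 genes were in the RefSeq table (GRCm38.p6, 300 bases each, 9 entries), and were searched on both strands for short sequences known to bind EGR factors (GCGTGGGCG or GCGGGGGCG), PU.1 (GAGGAAGT) and AP-1 (TGAGTCA or TGACTCA), and for a TATA box (TATAAA). The EGR sequences were in 0 of the 9 and in 3.47% of all 32851 promoters, and the PU.1 sequence in 0 and in 3.20%. The AP-1 sequence was in the Cd68 promoter, and in 5.2% of all promoters, and the TATA sequence in 1 of the Ptprc entries, and in 13.6% of all promoters. A match describes these letters and is no evidence of binding. The promoters of the most abundant gene (chr11:69666121-69666420, minus strand) and of the called gene (chr1:120504975-120505274, minus strand) are shown 5′ to 3′, with matches to any of the 4 motifs in capitals.
Cd68: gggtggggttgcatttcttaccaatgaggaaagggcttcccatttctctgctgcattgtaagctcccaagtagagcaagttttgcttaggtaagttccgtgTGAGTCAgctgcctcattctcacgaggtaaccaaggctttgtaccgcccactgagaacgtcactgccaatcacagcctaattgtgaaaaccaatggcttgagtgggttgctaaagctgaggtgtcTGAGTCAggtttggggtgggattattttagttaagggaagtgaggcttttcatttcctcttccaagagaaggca
Marco: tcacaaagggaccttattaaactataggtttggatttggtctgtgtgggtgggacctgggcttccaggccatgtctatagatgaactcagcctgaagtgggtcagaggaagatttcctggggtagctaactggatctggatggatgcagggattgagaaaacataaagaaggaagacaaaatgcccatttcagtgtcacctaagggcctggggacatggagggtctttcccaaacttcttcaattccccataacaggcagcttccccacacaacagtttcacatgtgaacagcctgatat

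The genes whose libraries varied most like the microglia genes were sought among 13711 well-counted genes. Cd68 was the single member with at least 10 counts in every library, so the likeness is to Cd68 alone. After the group means were taken out, the highest Pearson r over the 12 libraries were 0.91 for Josd1, 0.91 for Gnpda1, 0.91 for Atic, 0.90 for Pcdhgc5 and 0.89 for Yju2, beside a median of 0.017 over all candidates. Of these, Pcdhgc5 was called lower (log2 fold change -0.68, edgeR adjusted p = 0.00132). With 18 to 167 Cd68 counts per library, part of that variation is counting error, and the values are a description only. None of the 5 is among the microglia, leukocyte or scavenger lists.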

How the data were processed

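Total RNA of primary mouse OLs was sequenced in 12 libraries. The authors deposited raw counts for each gene symbol, not normalized, and the submitters' processing notes name the genome build mm10. The aligner, the counting program, its use of strand and the annotation are not given in the sources used here. The table held 1 blank entry with no name and no values, which was left out. Over the 30 pairs of libraries within a group, the chi-square per gene was 7.56 to 39.8, so no library is a copy of another.

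These counts were fitted in R 4.3.3 by edgeR 4.0.16 (filterByExpr, TMM, robust quasi-likelihood test, no covariate) and Benjamini-Hochberg adjustment over all tested genes. Calls asked for an adjusted p below 0.05 and a log2 fold change beyond 0.5 in size, the thresholds of the study. Members that failed the filter took their values from a fit of all genes with any count. The standard error was taken as the log2 fold change divided by the root of the F statistic. CPM used the TMM totals, and a limit of 3 counts was taken per library. The procedure was tested on simulated data. Gene positions and exon lengths came from GENCODE M21 (GRCm38).

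All 10 members were named. Of the 19 other lists, the most abundant gene was named, and every called gene up to 4 by absolute log2 fold change; some single-gene results are not reported. Likeness was ranked by Pearson r on log2 CPM with a prior count of 2, and the first 5 genes were named. The members and lists were chosen with earlier results of these data known. Alternatives were RLE, upper quartile and library size scaling, DESeq2 1.42.0, limma-voom (limma 3.58.1), 2 other filters, a replicate block, thinning to the smallest total, leaving out structural RNA genes, no fold threshold, leaving out each library in turn, and the longest transcript as gene length.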

Additional observations from a re-analysis of the deposited data

Results flagged for a closer look

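In 63 groups of 6 libraries (each microglia gene, Egr2, the summed level of each list, total counts and the 18S share), 5 had a library far from the others by the gap of its highest or lowest value, where chance gives about 1 in 20. Ptprc was at 0.489 CPM in siNC replicate 2 and at 0 to 0.144 CPM in the other siNC libraries. Trem2 was at 0.538 CPM in siEgr2 replicate 1, from 8 counts, and at 0 to 0.195 CPM in the other siEgr2 libraries. The lymphocyte list summed to 0.256 CPM in siEgr2 replicate 5, from 2 counts of Cd79a, and to 0 in the others of its group. The monocyte and neutrophil list summed to 7.90 CPM in siEgr2 replicate 2 and to 0 to 0.202 CPM in the others. The total of siNC replicate 6 was 39383014 counts, and those of the other siNC libraries were 28682946 to 32460116. Causes were not tested.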

How the results depend on the processing

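The 1281 called genes became 1974 (1737 lower, 237 higher) with scaling by library size only and 3300 (1877 lower, 1423 higher) with no fold threshold, and ranged from 1114 to 1339 with each library left out. The number of microglia markers called lower, 0, became 1 with scaling by library size only (Lcp1) and 1 without a filter (Marco). It was 0 without any 1 siNC library and ranged from 0 to 2 with each library left out, since Marco passed the filter, through siNC alone, without any 1 siEgr2 library, and was 2 without siEgr2 replicate 4 (Marco and Lcp1). In the fit without a filter it was 1, and from 1 to 2 with each library left out. No microglia marker was called higher under any of these settings.

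The log2 fold change of Tmem119 (0.03) changed sign with library size scaling (-0.14), limma-voom (-0.0333), no filter (-0.0094), the replicate block (-0.0789) and thinning (-0.30), and ranged from -0.38 to 0.17 with each library left out. The log2 fold change of Ptprc (0.15) changed sign with library size scaling (-0.0102) and the replicate block (-0.27), and ranged from -0.83 to 1.22. The cause was not tested. With each library left out, the log2 fold change of Csf1r ranged from -0.97 to -0.29, the log2 fold change of P2ry12 from 0.29 to 0.63, the log2 fold change of Trem2 from -1.91 to -0.50, the log2 fold change of Tyrobp from -1.83 to -0.76 and the log2 fold change of Cd68 from -0.43 to -0.16. The members with a fitted value other than Tmem119 and Ptprc kept their sign, and the log2 fold change of Marco had an adjusted p of 2.36e-06 to 0.0129 in every fit without a filter that was run. Marco entered those fits through siNC alone, so they add no separate support. At least 10 counts in every library of 1 group left 15893 genes, and thinning left 2 of the 10 genes in the filtered fit.

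The groups share replicate numbers, but nothing says that a number marks a shared culture. Same-numbered libraries deviated together by r = -0.06 to 0.06, with 0 of 6 pairs over 0.1, and 5 of 12 libraries were closest to their own number. With the replicate block as a factor, 1124 genes were called and 0 of the 5 tested microglia genes. Depth limits what can be seen: 3 counts were worth up to 0.384 CPM in a siEgr2 library, above the siNC mean of Trem2 and Ptprc.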

Other observations

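Most counts of 3 neutrophil genes came from a single library. In siEgr2 replicate 2, S100a8 had 35 counts, S100a9 38 and Ngp 17, while the other 11 libraries had 0 counts of S100a9 and Ngp and, for S100a8, 3 counts in siNC replicate 3 and 0 elsewhere. The granule gene Camp had 2 counts in siNC replicate 4 and 0 elsewhere. These genes were singled out after their values were seen.

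The 12 genes with at least 6 counts in each siNC library and 0 in each siEgr2 library were Marco, Tslp, Ereg, Saa4, Saa1, Slfn2, Klrg2, Ctnna3, Trim71, Runx2os1, Gm9869 and Gm45631, listed after their values were seen. Saa4 had 156 counts in siNC and Tslp 124, beside 157 for Marco.

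Even counts were more frequent than odd ones at low values. Of the genes with 4 to 9 counts in a library, 63.5% to 67.3% had an even count. In siNC replicate 1, 512 genes had 6 counts, beside 356 with 5 and 252 with 7. How the counts were made was not tested.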
